A study of Homo sapiens with 6 samples.

Results

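Sterols are built from acetyl-CoA in a long chain of enzymes, and the genes of that chain are switched on together. The genes described here are 31 human genes of this system, taken by their symbols. They come from lists of mevalonate and sterol enzymes, regulators of the SREBP and LXR pathways, and proteins that move or store sterols inside the cell. No measured value entered that rule, but the genes and lists were chosen with earlier results of these data known. All 31 had a row among the 36459 genes of the deposited table, and all 31 were among the 14626 genes with enough counts to test. They were compared between PC9, a human lung cancer line (NSCLC) that depends on a mutant EGF receptor, and PS PC9, the drug-tolerant persister cells that survived 6 days of culture with 15 µM of erlotinib, which blocks that receptor's kinase. There were 3 PC9 libraries, each from an independent culture kept without erlotinib, and 3 PS PC9 libraries, each pooled from several independent cultures. The comparison was part of a study of lipid metabolism and ferroptosis in persister cells, and asks how the expression of these genes differs between the persister cells and their parental line.

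In the mevalonate arm, acetyl-CoA is turned into farnesyl diphosphate, and in the sterol arm farnesyl diphosphate is joined into squalene, closed into lanosterol and trimmed to cholesterol. The transcription factor SREBP-2, from SREBF2, drives most of these enzymes, and SREBP-1, from SREBF1, leans towards fatty acid synthesis. Both sit in the endoplasmic reticulum with the escort protein SCAP, and are held there by INSIG1 and INSIG2 when sterols are plentiful. LXR alpha (NR1H3) and LXR beta (NR1H2) are nuclear receptors that sense oxidised sterols and switch on genes for sterol export, such as ABCA1 and ABCG1, as well as SREBF1 itself.

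The 6 libraries held between 29476725 and 34893782 estimated counts, and the normalisation factors lay between 0.975 and 1.02. The 31 genes took 0.266% to 0.279% of all counts in the PC9 libraries and 0.171% to 0.173% in the PS PC9 libraries. Epithelial genes were abundant in both: the 8 epithelial and lung adenocarcinoma markers summed to between 7519 and 8051 CPM (counts scaled to the library total) in PC9 and between 5936 and 6298 CPM in PS PC9. Of these 8, the lung lineage markers NKX2-1, at or below 0.0343 CPM, and NAPSA, at or below 0.323 CPM, were at or near 0 in every library. The others did not share a direction. CDH1 and KRT7 were higher in PS PC9, with log2 fold changes of 0.60 and 0.46. EPCAM, KRT8, KRT18 and KRT19 were lower, with log2 fold changes of -0.18, -0.80, -0.92 and -1.03. The leukocyte marker CD3E was at 0 throughout and PTPRC did not exceed 0.356 CPM. The 3 leukocyte markers together went from 74.3 to 76.1 CPM in PC9 to 19.5 to 22.5 CPM in PS PC9, nearly all of it CD68, a lysosomal membrane protein. The summed fibroblast markers went from 10.4 to 11.0 CPM in PC9 to 27.3 to 30.7 CPM in PS PC9, nearly all of it COL1A1, and the summed endothelial markers from 8.05 to 8.82 CPM to 3.25 to 3.80 CPM; their part in the results below was not tested.

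Sterol genes were mostly lower in persister cells. With a limit of 0.01 on the p-value of edgeR's quasi-likelihood test, adjusted by Benjamini-Hochberg over all genes, 19 of the 31 genes were lower in PS PC9, 2 were higher, and 10 were not past the limit. This stands against a background in which 56.8% of all tested genes passed the limit, 28.1% lower and 28.7% higher. The median log2 fold change of the 31 genes was -0.35, beside -0.0061 over all genes tested. Changes beyond a log2 fold change of -1 were found for 8 of the 31 genes, against 5.91% of all genes tested. The libraries of the 2 conditions did not overlap for 29 of the 31 genes, but that was so for 71.3% of all genes, and the exceptions were SC5D and NR1H2. In these bulk libraries, fewer cells that express a gene and less RNA in each cell cannot be told apart.

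**Figure D1:**
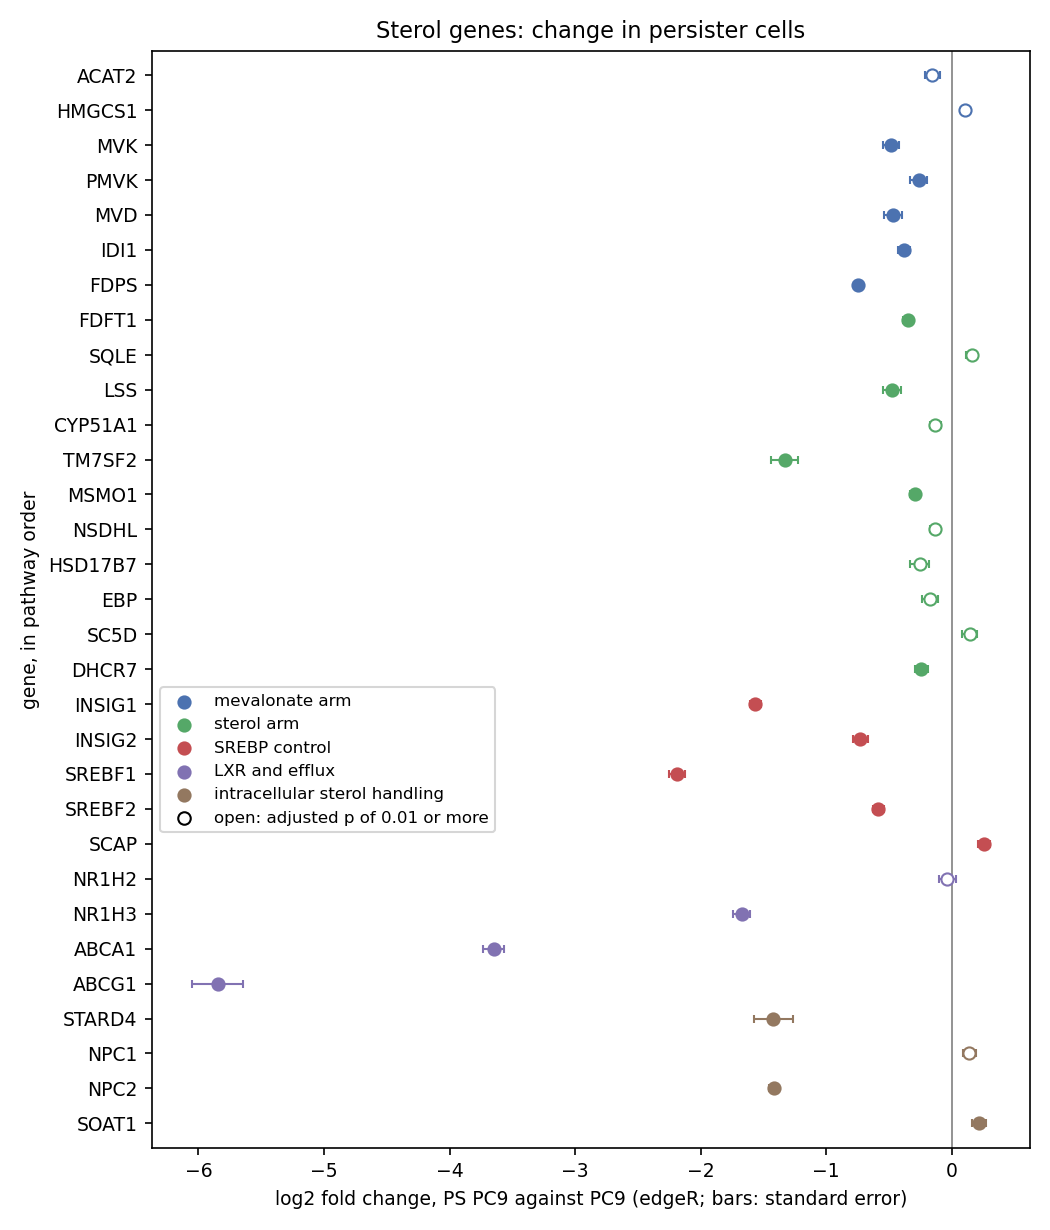
Log2 fold change in PS PC9 against PC9 (horizontal axis, with the standard error as bars) for the 31 genes in pathway order, coloured by role; open points did not pass an adjusted p of 0.01. The 18 enzymes lie between -1.33 and 0.16, while ABCG1, ABCA1 and SREBF1 lie at -5.85, -3.65 and -2.19.

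The enzymes of the mevalonate arm fell modestly, and each was lower from MVK onwards. Of the 7 genes, 5 were lower and 0 were higher (1 at an unadjusted p under 0.05, 0 by DESeq2), with a median log2 fold change of -0.38. ACAT2, which joins acetyl-CoA units, stood at 31.6, 28.7 and 28.9 CPM in PC9 and at 25.8, 25.7 and 28.6 CPM in PS PC9, a difference of -0.16 that was not past the limit (adjusted p = 0.0410, edgeR). HMGCS1, which makes HMG-CoA, stood at 111, 107 and 109 CPM in PC9 and at 117, 119 and 116 CPM in PS PC9, with an adjusted p of 0.0234 (edgeR). The next steps did pass the limit.

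Mevalonate kinase, MVK, held 16.1, 17.3 and 17.8 CPM in PC9 and 12.6, 12.1 and 11.9 CPM in PS PC9, so that every persister library was below every parental one. Its log2 fold change was -0.48, that of PMVK, the next kinase, was -0.26, and that of MVD, the decarboxylase that yields isopentenyl diphosphate, was -0.47. IDI1, which isomerises isopentenyl diphosphate, went from 60.5 ± 2.13 CPM (SD, n = 3) to 46.4 ± 1.98 CPM (SD, n = 3), a log2 fold change of -0.38. The largest fall of this arm was in FDPS, the farnesyl diphosphate synthase at the branch point to sterols and prenyl groups. FDPS (ENSG00000160752, chromosome 1, 155308748 to 155320666) held 166, 166 and 167 CPM in PC9 and 98.3, 98.0 and 100.3 CPM in PS PC9, a log2 fold change of -0.75 (SE, the standard error, 0.034, edgeR adjusted p = 1.37e-08). Adjusted p-values of the 5 lower genes ran up to 0.00549, that of PMVK, whose call was lost under DESeq2 (adjusted p = 0.0264) and when any library other than PC9 replicate 1 was left out (adjusted p up to 0.0254, edgeR).

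The sterol arm was split between genes that fell a little, 1 that fell strongly and 6 that did not pass the limit. Of its 11 genes, 5 were lower and 0 were higher (2 at an unadjusted p under 0.05), with a median log2 fold change of -0.24. With DESeq2, or with its size factor method (RLE) inside edgeR, 1 was higher and 5 were lower. FDFT1, squalene synthase and the committed step towards sterols, held 212, 214 and 219 CPM in PC9 and 164, 174 and 167 CPM in PS PC9, a log2 fold change of -0.35 (SE 0.037, edgeR adjusted p = 8.23e-06). The next enzyme, the squalene epoxidase SQLE, stood on the other side: it held 65.7, 59.6 and 63.5 CPM in PC9 and 69.0, 71.7 and 69.9 CPM in PS PC9. Its log2 fold change of 0.16 lay just outside the limit (adjusted p = 0.0102, edgeR) and just inside it under several alternatives, with adjusted p-values down to 0.00246 when PC9 replicate 1 was left out. Lanosterol synthase, LSS, was lower, from 43.8 ± 4.24 CPM (SD, n = 3) to 31.4 ± 1.33 CPM (SD, n = 3), with a log2 fold change of -0.48.

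TM7SF2 (ENSG00000149809, chromosome 11, 65111845 to 65116384), a sterol reductase of the endoplasmic reticulum and inner nuclear membrane, had the largest fall among the 18 enzymes. It held 18.5, 23.3 and 20.0 CPM in PC9 and 7.02, 8.83 and 8.60 CPM in PS PC9, which is 39.7% of the parental level (log2 fold change -1.33, SE 0.11, edgeR adjusted p = 9.41e-07). All 3 persister libraries lay well below all 3 parental ones. MSMO1, which removes methyl groups from the sterol ring, fell from 88.0 ± 1.99 to 71.7 ± 0.786 CPM (SD, n = 3 each), a log2 fold change of -0.30, and DHCR7, the last reductase on the way to cholesterol, by 0.24 on the log2 scale.

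The other 5 steps of the sterol arm differed by at most 0.26 on the log2 scale in either direction and did not pass the limit. CYP51A1, the lanosterol demethylase, NSDHL, a sterol dehydrogenase, and EBP, the sterol isomerase, had log2 fold changes of -0.13, -0.13 and -0.17, and SC5D, the sterol desaturase, had one of 0.14. HSD17B7, a ketosteroid reductase, had one of -0.26 with an adjusted p of 0.0122 (edgeR). Its count is less certain than the others, since up to 10.1% as many counts as HSD17B7's own lay on its pseudogene HSD17B7P2. With scaling by library size alone, CYP51A1, NSDHL, HSD17B7 and EBP were past the limit and lower, which brought the arm to 9 lower genes. The pseudogenes of FDPS and CYP51A1 held at most 6 counts in any library.

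**Figure D2:**
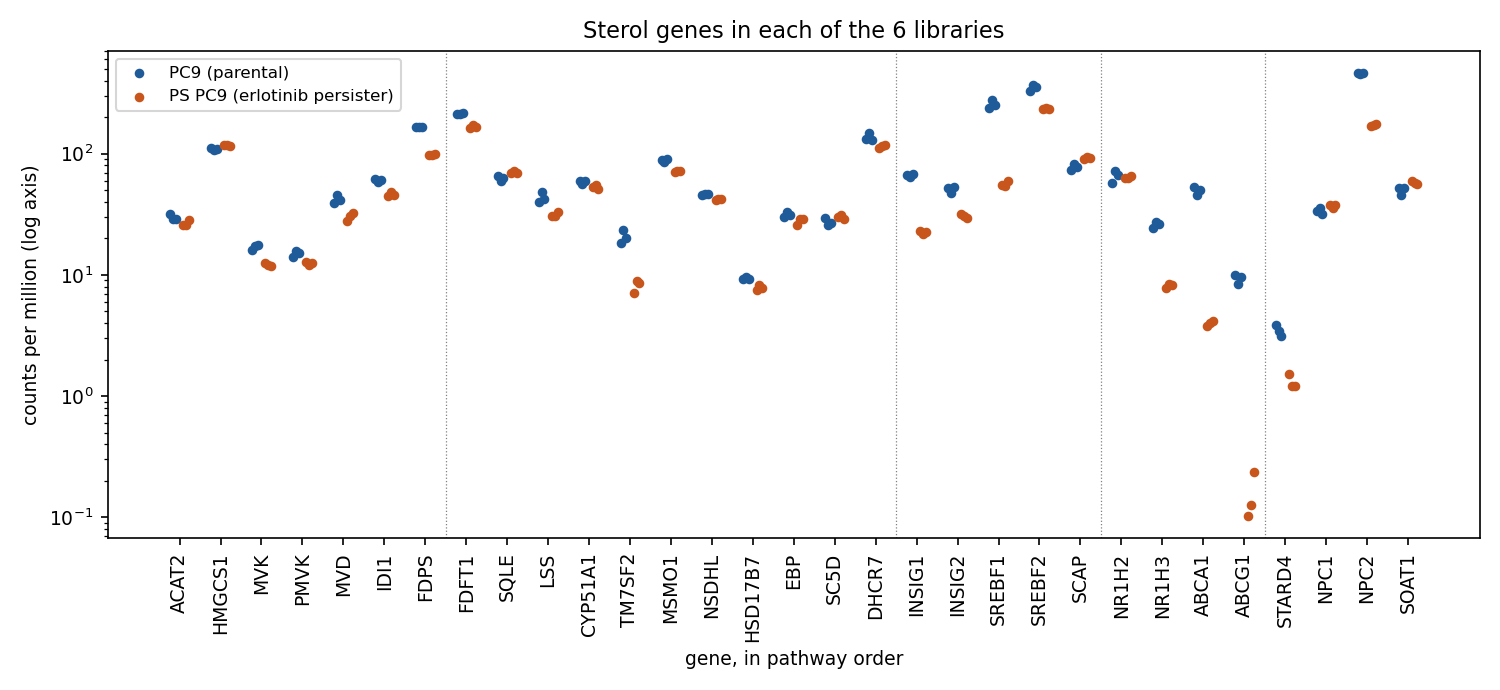
CPM (scaled counts) on a log axis for the 31 genes in each of the 6 libraries, PC9 in blue and PS PC9 in orange, with dotted lines between the role groups. The 3 libraries of a condition lie close together for nearly all genes, and the widest gaps between conditions are at SREBF1, NR1H3, ABCA1 and ABCG1.

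The genes that control SREBP were mostly lower. Of 5, 4 were lower and 1, SCAP, was higher, with a median log2 fold change of -0.73. SREBF1 (ENSG00000072310, chromosome 17, 17810399 to 17837002, minus strand, GRCh38) had the largest fall: it held 237, 278 and 255 CPM in PC9 and 55.4, 54.0 and 59.5 CPM in PS PC9. The persister libraries thus held 22.0% of the parental level (log2 fold change -2.19, SE 0.062, edgeR adjusted p = 3.52e-10). SREBF2 (ENSG00000198911, chromosome 22, 41833105 to 41907306) held 331, 371 and 357 CPM in PC9 and 233, 238 and 236 CPM in PS PC9, which is 66.7% of the parental level (log2 fold change -0.59, SE 0.044, edgeR adjusted p = 6.04e-07). Both groups were apart for both genes, with a much wider gap for SREBF1.

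The brakes on SREBP were lower as well. INSIG1 (ENSG00000186480, chromosome 7, 155297776 to 155310235), which is itself an SREBP target, held 66.5, 64.7 and 68.5 CPM in PC9 and 23.1, 21.8 and 22.6 CPM in PS PC9, a log2 fold change of -1.56 (SE 0.047, edgeR adjusted p = 5.09e-10). INSIG2, which responds less to SREBP, held 52.2, 47.2 and 53.1 CPM in PC9 and 32.1, 30.5 and 29.6 CPM in PS PC9, a log2 fold change of -0.73. The escort gene went the other way: SCAP rose from 72.9, 82.1 and 77.6 CPM to 90.3, 94.9 and 92.3 CPM, a log2 fold change of 0.25 (SE 0.048, edgeR adjusted p = 7.47e-04).

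To see what the control regions of these genes hold, the stretches before the annotated starts were searched for short motifs on both strands. RefSeq windows from 250 bases before to 50 bases after a start (GRCh38.p14) were at hand for 27 of the 31 genes; ACAT2, FDFT1, SQLE and ABCG1 had none. The core of the sterol regulatory element, TCACNCCAC, was found in 1 of the 27, SREBF2, beside 1.39% of all 27305 genes with a window. The CCAAT box (CCAAT), bound by NF-Y, was found in 19 of the 27, beside 39.7% of all genes, and the GC box (GGGCGG), bound by Sp1, in 26 of the 27, beside 48.3%. The E-box CACGTG was found in 5 of the 27, beside 8.77% of all genes. These are matches of letters and not binding sites, and genes with several starts had several windows, 37 for the 27 genes.

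SREBF2 and INSIG1 are shown because one is a regulator that carries the sterol element in its own window and the other is an SREBP target and regulator that fell further. The SREBF2 stretch is chr22:41832855-41833104 on the plus strand, positions -250 to -1, and capitals mark the sterol element at -133 and a CCAAT box, read on the opposite strand as ATTGG, at -106; an antisense transcript is annotated over it. The INSIG1 stretch is chr7:155297628-155297775 on the plus strand, 148 bases from -250 to -103, ending before the earliest annotated INSIG1 transcript, and capitals mark an ATTGG at -170.
SREBF2: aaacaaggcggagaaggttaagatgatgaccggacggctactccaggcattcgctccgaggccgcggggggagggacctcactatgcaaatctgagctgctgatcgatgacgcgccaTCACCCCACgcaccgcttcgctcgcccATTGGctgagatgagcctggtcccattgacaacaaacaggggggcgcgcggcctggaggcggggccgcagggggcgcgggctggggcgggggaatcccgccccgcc
INSIG1: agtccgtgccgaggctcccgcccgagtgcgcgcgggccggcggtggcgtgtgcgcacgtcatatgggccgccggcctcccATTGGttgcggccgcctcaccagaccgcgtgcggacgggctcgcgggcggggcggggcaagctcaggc

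SREBF1 has an upstream start, used for SREBP-1a, and a downstream start inside the gene, used for SREBP-1c, and LXR acts on the latter. Transcript counts were summed by start for chromosome 17 (GRCh38, gene on the minus strand). Transcripts that begin at 17836986 to 17837002, the upstream start, held 6924, 8238 and 7351 counts in PC9 and 1417, 1401 and 1731 in PS PC9. Those that begin at 17823594 to 17823618, the downstream start, held 676, 680 and 639 counts in PC9 and 81, 159 and 143 in PS PC9. After scaling, PS PC9 stood at 21.7% of PC9 for the upstream start and at 20.5% for the downstream start, so the counts were lower at both. The annotated downstream transcripts are partial, at most 1058 bases long, and reads from the shared body of the gene are assigned to the long upstream transcript SREBF1-201, so the low share of the downstream start does not measure SREBP-1c. In the transcript-level test SREBF1-201 had a log2 fold change of -2.23 (adjusted p = 8.10e-05, edgeR) and SREBF1-211, a retained-intron transcript that holds most of the downstream counts, one of -2.26 (adjusted p = 0.00123, edgeR). SREBF1-206, the protein-coding downstream transcript, had one of -2.63 that did not pass the limit (adjusted p = 0.0354, edgeR). Both downstream transcripts hold under 10% of the gene's counts and are named after their values were seen.

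The LXR branch held the largest differences. Of its 4 genes 3 were lower and 0 were higher (0 also at an unadjusted p under 0.05 and by DESeq2), with a median log2 fold change of -2.66. ABCA1 (ENSG00000165029, chromosome 9, 104781006 to 104928155, minus strand), which loads cholesterol onto lipid-poor apolipoproteins, held 53.5, 45.4 and 50.3 CPM in PC9 and 3.77, 3.97 and 4.13 CPM in PS PC9. That is 7.98% of the parental level (log2 fold change -3.65, SE 0.083, edgeR adjusted p = 8.17e-11), and the lowest parental library was far above the highest persister library. ABCG1 (ENSG00000160179, chromosome 21, 42199689 to 42297244), which passes sterols on to larger lipoprotein particles, held 10.0, 8.34 and 9.56 CPM in PC9 and 0.103, 0.127 and 0.234 CPM in PS PC9.

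For ABCG1 the persister values rest on few reads: 3, 4 and 8 counts, 15 in all, against 951 in the 3 PC9 libraries. The summed, scaled counts were 58.9-fold lower, with an exact binomial 95% interval of 35.5 to 106 that covers counting error only, and the fitted log2 fold change was -5.85 (SE 0.20, edgeR adjusted p = 1.63e-09). ABCG1 had the 4th lowest log2 fold change of the 14626 genes tested, and ABCA1 the 44th.

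The receptors themselves differed from each other. NR1H3, LXR alpha (ENSG00000025434, chromosome 11, 47248300 to 47269033), held 24.3, 27.2 and 26.5 CPM in PC9 and 7.74, 8.36 and 8.31 CPM in PS PC9, a log2 fold change of -1.67 (SE 0.068, edgeR adjusted p = 5.41e-09). NR1H2, LXR beta, held 57.5, 71.4 and 66.9 CPM in PC9 and 62.8, 62.9 and 65.1 CPM in PS PC9. The NR1H2 groups overlapped, with a log2 fold change of -0.036 (SE 0.069, edgeR adjusted p = 0.657) that turned positive without PC9 replicate 2.

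LXR binds with RXR at a direct repeat known as DR4, here AGGTCA, 4 bases of any kind and AGGTCA again, searched on both strands with at most 2 mismatches outside the spacer. It was found in 1 of the 27 genes with a window, ABCA1, beside 2.90% of all genes, and with at most 1 mismatch in none of the 27. The ABCA1 stretch is shown because this gene fell most among those with a window: chr9:104928156-104928405 on the minus strand, positions -250 to -1, with an antisense transcript annotated over it. Capitals mark a CACGTG at -147 and the DR4 match at -69, which reads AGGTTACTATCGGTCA on the opposite strand.
ABCA1: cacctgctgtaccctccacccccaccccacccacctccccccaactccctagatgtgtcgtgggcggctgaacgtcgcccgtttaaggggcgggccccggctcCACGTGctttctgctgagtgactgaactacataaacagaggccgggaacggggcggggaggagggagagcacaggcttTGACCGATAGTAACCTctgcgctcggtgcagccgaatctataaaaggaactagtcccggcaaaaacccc

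Genes that move or store sterols inside the cell did not share a direction. Of these 4, 2 were lower, 1 was higher and 1 did not pass the limit; with upper-quartile scaling or library size alone none was higher and 2 were lower. NPC2 (ENSG00000119655, chromosome 14, 74476192 to 74494177, minus strand), the soluble lysosomal protein that takes up cholesterol freed from lipoproteins, held 465, 458 and 461 CPM in PC9 and 169, 173 and 176 CPM in PS PC9, a log2 fold change of -1.42 (SE 0.034, edgeR adjusted p = 1.08e-10). Its membrane partner NPC1 held 33.7, 35.6 and 31.7 CPM in PC9 and 37.6, 36.0 and 37.7 CPM in PS PC9, with a log2 fold change of 0.14 that did not pass the limit (adjusted p = 0.0375, edgeR).

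STARD4, a soluble sterol carrier and SREBP target, held 3.86, 3.44 and 3.15 CPM in PC9 and 1.51, 1.21 and 1.20 CPM in PS PC9, a log2 fold change of -1.42 (SE 0.16, edgeR adjusted p = 1.28e-05). SOAT1, which esterifies cholesterol for storage in droplets, rose from 51.8, 45.3 and 52.2 CPM to 59.3, 57.6 and 56.6 CPM, a log2 fold change of 0.22 (SE 0.057, edgeR adjusted p = 0.00608). That call did not hold under upper-quartile scaling (adjusted p = 0.0203) or library size alone (adjusted p = 0.0255), nor without any of the PS PC9 libraries (adjusted p up to 0.0258, edgeR).

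Levels of different genes were compared per length, as transcript counts divided by annotated transcript length and scaled within each library to TPM. On this scale NPC2 was the highest of the regulators, transporters and handling genes in both conditions, at 1355 ± 12.7 TPM in PC9 and 524 ± 4.68 in PS PC9 (SD, n = 3 each). SREBF1, at 192 ± 11.3 TPM, lay above SREBF2, at 153 ± 3.01, in PC9 on this scale (SD, n = 3 each). In PS PC9 it lay below, at 44.9 ± 3.29 against 105 ± 1.52 (SD, n = 3 each). The matched transcripts held 96.9% of the SREBF2 counts. The PC9 order rests on short SREBF1 transcripts, which division by length weights heavily. SREBF1-211, of 591 bases, held 6.52% of the SREBF1 counts in PC9. The main transcripts, SREBF1-201 and SREBF2-201, are 4901 and 5237 bases long. By counts SREBF1 was below SREBF2 in PC9 too, at 257 against 353 CPM, so the switch of order is not read as a result. INSIG1 was above INSIG2 in PC9, at 52.4 ± 2.17 against 37.4 ± 3.03 TPM (SD, n = 3 each). In PS PC9 it was below, at 18.5 ± 1.47 against 23.7 ± 1.36 (SD, n = 3 each). Matched transcripts held 82.9% of the INSIG2 counts, so that the INSIG2 level is understated. NR1H2 was above NR1H3 in both conditions, at 56.7 ± 6.54 against 34.4 ± 2.77 TPM in PC9 and 57.5 ± 1.99 against 13.2 ± 0.602 in PS PC9 (SD, n = 3 each).

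**Figure D3:**
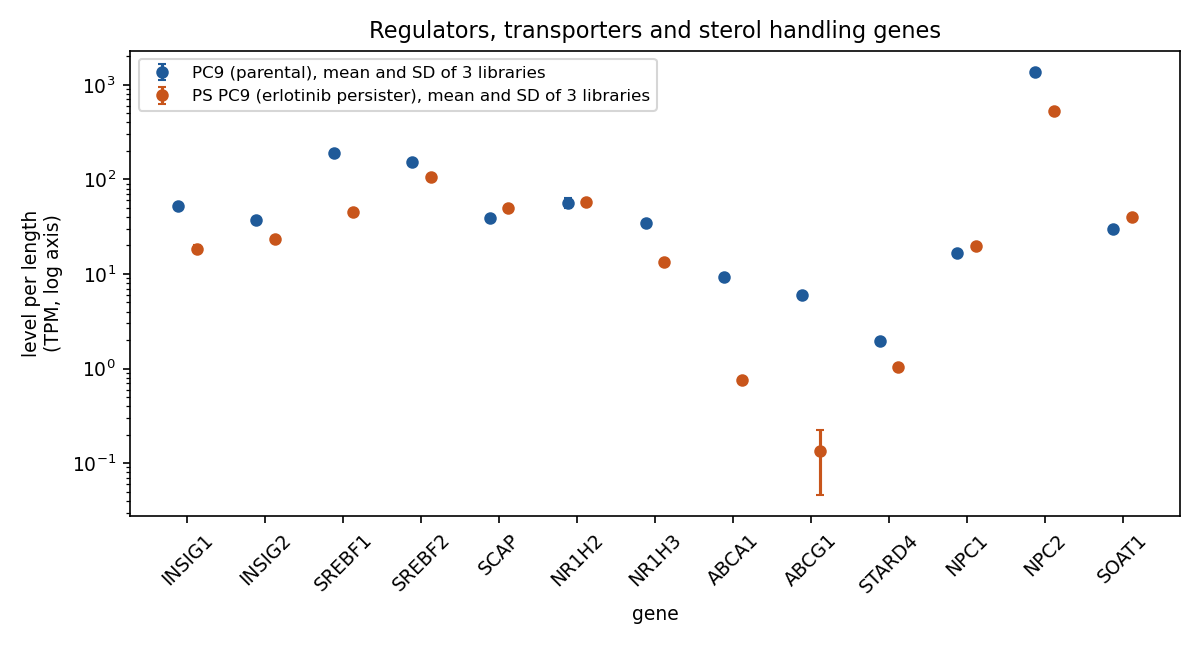
Level per length (TPM, on a log axis) of the 13 regulators, transporters and sterol handling genes in PC9 (blue) and PS PC9 (orange), as the mean of 3 libraries with the SD as bars, which are mostly smaller than the points. NPC2 is the highest in both conditions, and ABCA1 and ABCG1 lie lowest relative to PC9. The order of SREBF1 and SREBF2 differs between conditions on this scale, but in PC9 it rests on short SREBF1 transcripts.

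The changes given above can also be put as ratios within 4 pairs of related genes, pairs that were chosen after the values were seen. The log2 ratio of SREBF1 to SREBF2 counts was -0.48, -0.41 and -0.49 in the PC9 libraries and -2.07, -2.14 and -1.99 in the PS PC9 libraries. The mean log2 ratio of INSIG1 to INSIG2 went from 0.39 ± 0.055 to -0.45 ± 0.052, that of NR1H3 to NR1H2 from -1.33 ± 0.075 to -2.97 ± 0.055, and that of NPC2 to NPC1 from 3.78 ± 0.088 to 2.22 ± 0.050 (SD, n = 3 each). In each pair the libraries of the conditions did not overlap, but with pairs chosen in this way the separation adds nothing to the changes of the single genes. The two-sided exact permutation test gave p = 0.1 for each, also after adjustment over the 4 pairs. That is the smallest value that 3 against 3 libraries allow.

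**Figure D4:**
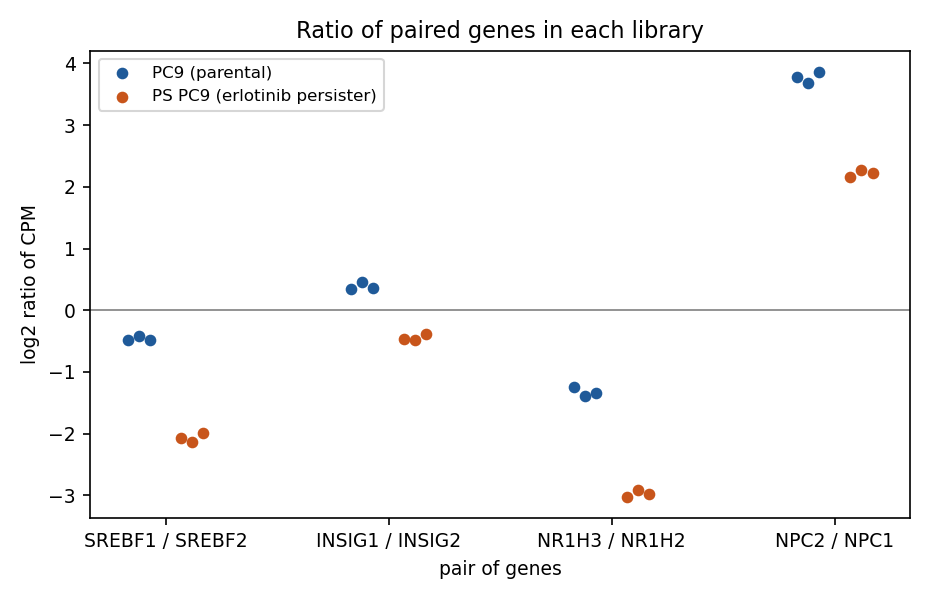
Log2 ratio of CPM for 4 pairs of genes in each of the 3 PC9 libraries (blue) and 3 PS PC9 libraries (orange); a ratio between genes of different length is read for its change and not its level. All 4 ratios are lower in PS PC9, by between 0.84 and 1.64.

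The deposited transcript table gave a view of the isoforms. Of 341 annotated transcripts of the 31 genes, 140 could be tested, and 19 of these, from 12 genes, were lower and 0 higher in PS PC9 (edgeR, adjusted p under 0.01, with 4 higher at an adjusted p under 0.05 and 4 higher at an unadjusted one), against 3.91% lower and 3.89% higher among all 54499 tested transcripts. The number lower fell whichever library was left out, and fell further with the replicate number as a block, as given in the closing section. For ABCA1, SREBF2, IDI1, HMGCS1, PMVK, NPC1, SQLE and EBP a single transcript held over 90% of the gene's matched counts in both conditions. SC5D, which did not pass the limit as a gene, held a different balance of transcripts, with no test of the shares: the share of the longer SC5D-201 went from 36.3% to 22.7% and that of SC5D-202 from 62.3% to 73.8%, with log2 fold changes of -0.56 and 0.36 that did not pass the limit (adjusted p = 0.0261 and 0.0342, edgeR). In NSDHL the share of NSDHL-201 went from 28.1% to 20.3% and that of NSDHL-203 from 64.1% to 73.8%, and neither transcript passed the limit (adjusted p = 0.0116 and 0.802, edgeR). ABCG1-203 held 265, 142 and 192 counts in PC9 and 0 in each PS PC9 library, where the limit that a count of 0 allows is 3 counts per library. Kallisto divides reads between similar transcripts by estimation, and for FDFT1 only 43.7% of the gene's counts lay in transcripts that matched the annotation used, so its isoforms are not described.

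Genes around the sterol pathway were read from lists by function. Of all genes tested, 28.7% were higher and 28.1% lower, and the counts of each list are to be read beside these shares. The number higher in the SREBP processing list was near that share. Among 14 genes of SREBP processing and sterol-regulated degradation, 4 were higher and 2 lower, with a median log2 fold change of 0.070; under library size alone 2 were higher and 3 lower. SPRING1, which acts with the SREBP-cleaving site-1 protease, rose from 44.6, 48.9 and 45.6 CPM to 63.1, 62.0 and 60.9 CPM, a log2 fold change of 0.42. MBTPS1, that protease itself, rose by 0.16 on the log2 scale and NFYB, a subunit of the CCAAT-binding factor, by 0.20, but neither passed under library size alone (edgeR adjusted p = 0.0152 and 0.0104) or without PC9 replicate 3 (0.0101 and 0.0137), nor NFYB without PS PC9 replicate 2 (0.0122). SP1, the GC box factor, fell by 0.39.

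Among 11 genes of the non-sterol isoprenoid branch, which draws on the same farnesyl diphosphate, 4 were higher and 1 lower, with a median of 0.14. PDSS1, which makes the side chain of coenzyme Q, went from 5.87 ± 0.408 to 9.59 ± 0.685 CPM (SD, n = 3 each), a log2 fold change of 0.70. GGPS1, geranylgeranyl diphosphate synthase, rose by 0.24 and DHDDS, which makes dolichol chains, by 0.34, NUS1, its partner in that step, rose by 0.23, while FNTA, a subunit of the protein prenyltransferases, fell by 0.37. FDPS upstream of them was among the enzymes that fell.

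Lipogenic targets of SREBP-1 were lower, as SREBF1 was. Of 10 genes 8 were lower and 1 was higher, with a median of -0.95. SCD, the stearoyl-CoA desaturase, fell from 1133, 1129 and 1133 CPM to 38.0, 38.8 and 37.2 CPM. FADS2 and FADS1, the desaturases of polyunsaturated fatty acids, had log2 fold changes of -1.64 and -1.01, and ELOVL6, an elongase, one of -1.05. ACLY, which supplies acetyl-CoA to both fatty acids and sterols, held between 243 and 254 CPM in PC9 and between 245 and 249 CPM in PS PC9, with a log2 fold change of -0.0076 (adjusted p = 0.856, edgeR), and GPAM was the gene that rose, by 0.75; genes named beyond the 4 with the smallest p in each list, here and in the other lists, were chosen after their values were seen.

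Of 11 LXR targets and oxysterol enzymes 10 could be tested, and 6 were lower and 2 higher, with a median of -0.36; with DESeq2, or without PC9 replicate 2 or 3 or PS PC9 replicate 1 or 2, 1 was higher. MYLIP, which marks lipoprotein receptors for degradation, held 45.3, 43.4 and 44.4 CPM in PC9 and 10.6, 11.2 and 10.3 CPM in PS PC9, a log2 fold change of -2.05 (SE 0.054, edgeR adjusted p = 2.20e-10). LPCAT3, which inserts polyunsaturated chains into phospholipids, fell by 1.31 and PLTP, a phospholipid transfer protein, by 0.65. CYP7B1, which breaks down oxysterols, rose from 9.57 ± 0.305 to 19.4 ± 1.47 CPM (SD, n = 3 each). SMPDL3A, a phosphodiesterase, was the other gene past the limit, with a log2 fold change of 0.48, and its call was lost in those fits (adjusted p = 0.0204 with DESeq2 and up to 0.0182 without a library, edgeR). CH25H, which makes an oxysterol, had 0 counts in every library.

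Of 13 genes of sterol uptake and transport 12 could be tested, and 5 were higher and 5 lower; with upper-quartile scaling or library size alone 3 were higher and 5 lower. VLDLR, a lipoprotein receptor, rose from 15.9, 14.9 and 15.2 CPM to 64.3, 64.0 and 61.5 CPM. SCARB1, the receptor for high-density lipoprotein, rose from 54.3 ± 2.40 to 105 ± 2.72 CPM (SD, n = 3 each), a log2 fold change of 0.95. NCEH1, which hydrolyses cholesterol esters, rose by 0.72, and GRAMD1C, a member of the family that carries sterol from the plasma membrane, fell by 1.62. The remaining higher genes were LIMA1, a cytoskeletal protein, at 0.16 and OSBPL2, a sterol-binding protein, at 0.15, whose calls were lost under upper-quartile scaling and library size alone (edgeR adjusted p up to 0.0511) and without some of the libraries (up to 0.0453), PC9 replicate 3 and PS PC9 replicates 2 and 3 for both and PC9 replicate 2 and PS PC9 replicate 1 for OSBPL2. The remaining lower ones were LIPA, the lysosomal acid lipase, at -0.81, GRAMD1A and GRAMD1B, of the same family as GRAMD1C, at -0.37 and -0.38, and TMEM97, at -0.29. The call of GRAMD1B was lost with DESeq2 (adjusted p = 0.0309) and without PC9 replicate 3 or PS PC9 replicate 1 or 2 (edgeR adjusted p up to 0.0149).

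**Figure D5:**
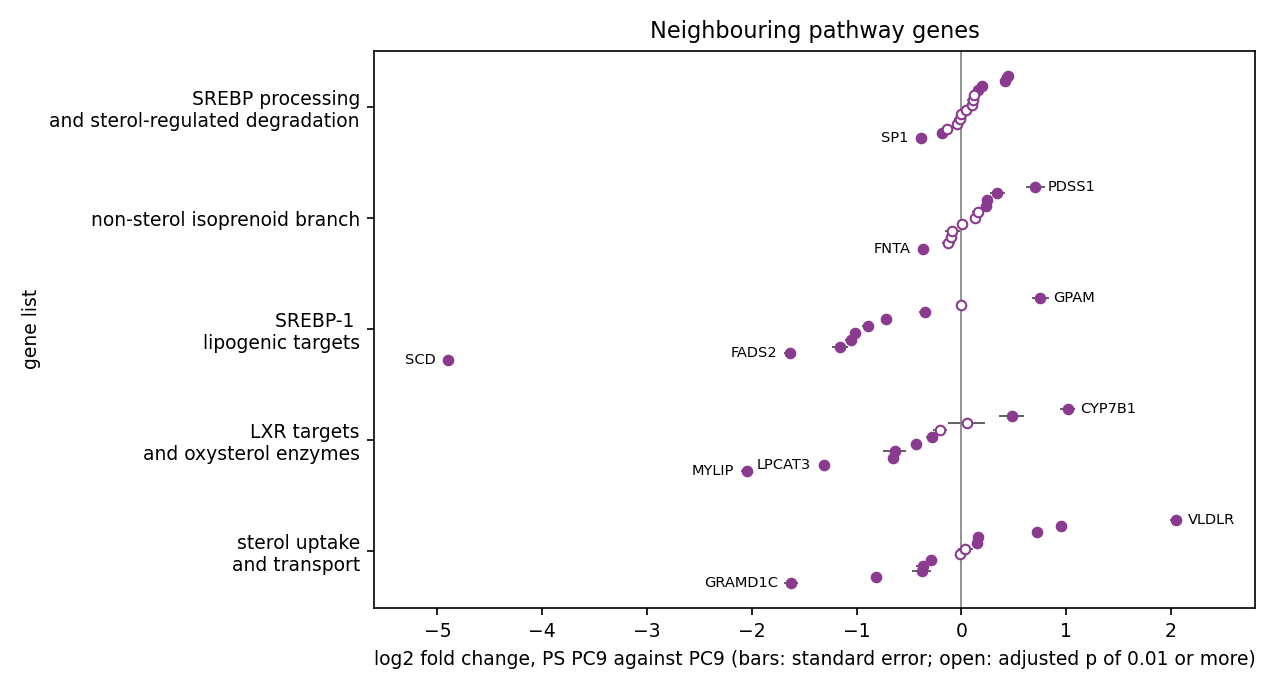
Log2 fold change in PS PC9 against PC9 (horizontal axis, with the standard error as bars) for the tested genes of 5 neighbouring lists; open points did not pass an adjusted p of 0.01, and the outermost genes are named where they are described in the text. The lipogenic list lies mostly to the left, with SCD at -4.90, while the uptake list reaches from GRAMD1C at -1.62 to VLDLR at 2.04.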

How the data were processed

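RNA was extracted after 6 days, enriched for poly-A and sequenced as paired ends. Per the labels and the methods, the authors assigned reads with kallisto 0.46.1 to Ensembl transcripts (GRCh38.p13), and the deposited tables hold its estimated counts per gene symbol and per transcript as whole numbers, with no normalisation. Whether the library kit kept strand is not given in the sources used here. The authors' own comparison, made with sleuth 0.30.0 together with another laboratory's libraries, was not used.

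From the gene counts, genes with low counts were removed with edgeR's filter (filterByExpr) and PS PC9 was compared with PC9 using edgeR 4.0.16 (TMM scaling, quasi-likelihood test) in R 4.3.3, fitted on all genes and adjusted by Benjamini-Hochberg, with the study's limit of 0.01. Standard errors are the log2 fold change divided by the square root of F. CPM values use TMM-scaled library sizes. Transcript counts were tested likewise. Transcript lengths, positions and names came from GENCODE 44 (GRCh38): 167067 of 188753 transcripts matched by identifier, with 95.8% of counts, and gene positions are of that annotation. Promoter windows came from RefSeq. DESeq2 1.42.0, limma 3.58.1 (voom), other scalings, no filter, counts summed from transcripts and leaving out each library were alternatives.

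The named genes are the 31 genes, up to 4 genes past the limit with the smallest p in each neighbouring list, transcripts with at least 10% of a gene's counts (the downstream SREBF1 transcripts are an exception), pseudogenes and markers. The genes and lists were chosen with earlier results of these data known. P-values measure the spread between these libraries, and no replicates were found to be the same library deposited again. Some genes of the neighbouring lists are counted in their list but are not reported here.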

Additional observations from a re-analysis of the deposited data

How the results depend on the processing

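Of the 21 sterol genes past the limit, all 21 kept their direction under every alternative fit and 19 stayed past the limit in each, the exceptions being PMVK and SOAT1. The log2 fold change of NR1H2 ran from -0.12 to 0.033 as single libraries were left out and reversed, to 0.033, without PC9 replicate 2, and that of ACLY ran from -0.022 to 0.0099, also reversed without PC9 replicate 2. The median log2 fold change of all genes tested, -0.0061, was -0.059 with library size only, -0.049 with upper-quartile scaling and -0.0029 with RLE. For the 31 genes, the number higher went from 2 to 1 with upper-quartile scaling and 1 with library size only, to 6 at an adjusted p under 0.05 and to 0 with a fold change above 1.5, and it ran from 1 (without any of the PS PC9 libraries) to 4 (without PC9 replicate 1). The number lower went from 19 to 11 with a fold change above 1.5. Over all genes, that fold limit left 1662 higher and 1839 lower, of 4193 and 4114.

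With the same fold limit the mevalonate arm had 1 lower gene, the sterol arm 1 lower, and SREBP control and sterol handling 0 higher each. It left 0 higher and 0 lower in the SREBP processing list, 1 higher and 0 lower in the isoprenoid list, 1 higher among LXR targets, and 3 higher and 2 lower in the uptake list. At an adjusted p under 0.05 the mevalonate arm had 1 higher gene, the sterol arm 2 higher and 9 lower, and sterol handling 2 higher. The sterol arm had 1 higher gene, SQLE, under RLE, without the expression filter and with DESeq2, and 9 lower with upper-quartile scaling and with library size only, under both of which sterol handling had 0 higher and the uptake list 3 higher. Library size only left 2 higher genes in the SREBP processing list, and DESeq2 1 higher LXR target. Leaving out 1 library gave 0 to 2 higher genes in the sterol arm (2 without PC9 replicate 1), 0 to 2 in sterol handling (2 without PC9 replicate 2, 0 without any PS PC9 library), 2 to 4 in the SREBP processing list (2 without PC9 replicate 3), 1 to 2 among LXR targets (1 without PC9 replicate 2 or 3 or PS PC9 replicate 1 or 2), 3 to 5 in the uptake list (3 without PC9 replicate 3 or PS PC9 replicate 2 or 3) and 8 to 12 lower transcripts, the lowest without PC9 replicate 3. A DR4 match with at most 1 mismatch was found in 0 of the 27 sterol genes with a promoter window.

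Of the sterol gene transcripts, 38 in place of 19 were lower and 4 were higher at an adjusted p under 0.05. With the replicate number as a block, 4 transcripts were lower, the sterol arm had 1 higher gene, and 3 genes of the 31 were higher and 20 lower. Whether the replicate numbers pair the samples could not be told. Deviations of same-numbered libraries correlated at only 0.12, 0.024 and 0.022. PS PC9 replicates 1 and 2 correlated best with the PC9 library of the same number, but PS PC9 replicate 3 correlated better with PC9 replicate 2 (0.097). Depth limits ABCG1 in PS PC9 and the weakly expressed transcripts. The causes of these shifts were not tested.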
